A study of Mus musculus with 4 samples.

Results

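Barhl1, Barhl2, Fezf1 and Fezf2 are 4 transcription factor genes that form 2 pairs of close relatives, and they were examined among the 25239 gene IDs measured in mouse retina at E13.5, a stage at which ganglion, amacrine, horizontal and cone cells are being born. They were taken by symbol, and all 4 were found, each on 1 row of each table. They were selected on their TPM values in these same 4 libraries, control against Isl1cKO, so their differences between the groups are described and not tested. The study sequenced poly(A) RNA from dissected E13.5 retina in 4 libraries. The 2 control libraries are labelled only as control, and the other 2 are labelled Isl1cKO and described by the series as lacking Isl1, a LIM-homeodomain transcription factor of early retinal neurons. The strain, the deleting Cre line and the number of embryos behind a library are not given in the sources used here, and the 2 libraries of a group may share litters or pools.

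Barhl1 and Barhl2 encode homeodomain proteins related to the BarH proteins of the fly eye. Barhl2 is known in the mouse retina for its part in the specification of amacrine cells and the survival of ganglion cells, and Barhl1 is better known from inner ear hair cells, the cerebellum and the midbrain. Fezf1 and Fezf2 encode zinc finger repressors of the developing forebrain and olfactory system, and Fezf2 specifies subcortical projection neurons of the cortex. Both pairs carry a short motif that recruits Groucho/TLE corepressors, and in several tissues they help to fix which type of neuron a cell becomes.

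Isl1 itself stood at 242 and 201 TPM in control retina, against 321 and 223 TPM under the Isl1cKO label. TPM is a transcript level scaled to transcript length and to the same sum in each library, so levels can be compared between genes. The level of the targeted gene therefore did not set the groups apart (limma adjusted p = 0.683), and all directions here rest on the labels. Levels are given per gene and not per exon, so this value cannot show whether a part of Isl1 was deleted. Aligned sequence was estimated at 12.6 to 14.3 gigabases per library, with the least in Isl1cKO replicate 2. Retinal identity was checked with 8 markers, whose summed level was 2964 and 3294 TPM in control retina, against 3079 and 3604 TPM under the Isl1cKO label. Lens markers summed to 180 and 223 TPM in the controls against 9.79 and 7.96 TPM. In limma 5 of the 8 were lower at an adjusted p under 0.05, as were 0.465% of all tested genes. Red blood cell markers summed to 903 and 1306 TPM in the controls and to 531 and 94.5 TPM in the libraries labelled Isl1cKO. The part of lens and blood RNA in the results was not tested.

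In each pair, one gene was abundant with nearly the same mean in both groups, and its relative was scarce in the controls and higher in the libraries labelled Isl1cKO. Barhl1 stood at 0.557 and 0.620 TPM in control retina, against 6.01 and 4.74 TPM under the Isl1cKO label. Both values under the Isl1cKO label lay far above both controls. The means were 0.588 ± 0.0442 TPM and 5.38 ± 0.900 TPM (SD, n = 2 each), a 9.14-fold difference on the TPM scale. Taking each library labelled Isl1cKO against each control gave ratios from 7.65 to 10.8. The replicates themselves differed by 1.11-fold among the controls and by 1.27-fold under the Isl1cKO label. On the log2(TPM + 1) scale, which shrinks the change of low genes, the difference was 2.00. In the mm10 coordinates of the authors' tables, used for all 4 genes, it lies on chromosome 2, from 28907680 to 28916668 on the minus strand.

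Barhl1 was read in all 4 libraries. Mean coverage, the number of aligned bases per base of the gene, was 2.63 and 2.85 in the controls and 29.6 and 21.4 in the libraries labelled Isl1cKO. Coverage comes from the same reads as TPM, so its 9.32-fold difference is no separate support. Among all 25239 gene IDs, Barhl1 stood at percentiles 41.5 and 41.9 in the controls and at 56.7 and 55.8 in the libraries labelled Isl1cKO.

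Barhl2, its relative, was at 23.8 and 19.8 TPM in control retina, against 26.98 and 18.7 TPM under the Isl1cKO label. The groups overlapped, with the highest and the lowest value both under the Isl1cKO label. The means were 21.8 ± 2.89 and 22.8 ± 5.85 TPM (SD, n = 2 each), a log2 difference of 0.05, smaller than the spread between replicates. Its sign was not stable. Leaving out control replicate 2 gave -0.08 and leaving out Isl1cKO replicate 1 gave -0.21, whereas leaving out the other replicate gave 0.18 for the controls and 0.30 for the Isl1cKO label. Barhl2 lies on chromosome 5, from 106452523 to 106458166 on the minus strand.

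Fezf1 stood at 0.710 and 0.769 TPM in control retina, against 2.52 and 2.25 TPM under the Isl1cKO label. All values in one group again lay above all in the other. The means were 0.740 ± 0.0416 and 2.39 ± 0.188 TPM (SD, n = 2 each), a 3.22-fold difference with a log2 difference of 0.96, and single ratios ran from 2.93 to 3.55. Coverage was 3.73 and 3.802 in the controls and 13.45 and 11.2 in the libraries labelled Isl1cKO. Fezf1 lies on chromosome 6, from 23245047 to 23248264 on the minus strand.

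Fezf2 was the most abundant of the 4 genes, at 59.6 and 58.7 TPM in control retina, against 62.9 and 63.6 TPM under the Isl1cKO label. The groups did not overlap, although the means of 59.1 ± 0.637 and 63.3 ± 0.477 TPM (SD, n = 2 each) differed by only 1.07-fold, with a log2 difference of 0.10. In TPM this small step, 4.14, was larger than the TPM difference of Fezf1, 1.646, and near that of Barhl1, 4.79. Fezf2 lies on chromosome 14, from 12341892 to 12345865 on the minus strand.

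Thus 3 of the 4 genes had groups that did not overlap, with the higher values under the Isl1cKO label. Groups separated in that direction in 14.9% of the 13984 genes tested, and in the opposite direction in 30.0%. All 4 log2 differences were above 0, as were those of 36.2% of the tested genes, with 63.8% below 0. Since the choice of these genes used this contrast, nothing is read from these counts. A gene was tested when at least 2 libraries had 1 TPM or more. Barhl1 and Fezf1 met this through the libraries labelled Isl1cKO alone and had to differ, while Barhl2 and Fezf2 met it in all 4 libraries. In bulk tissue a change in the number of cells that express a gene and a change in its RNA per cell cannot be told apart.

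**Figure D1:**
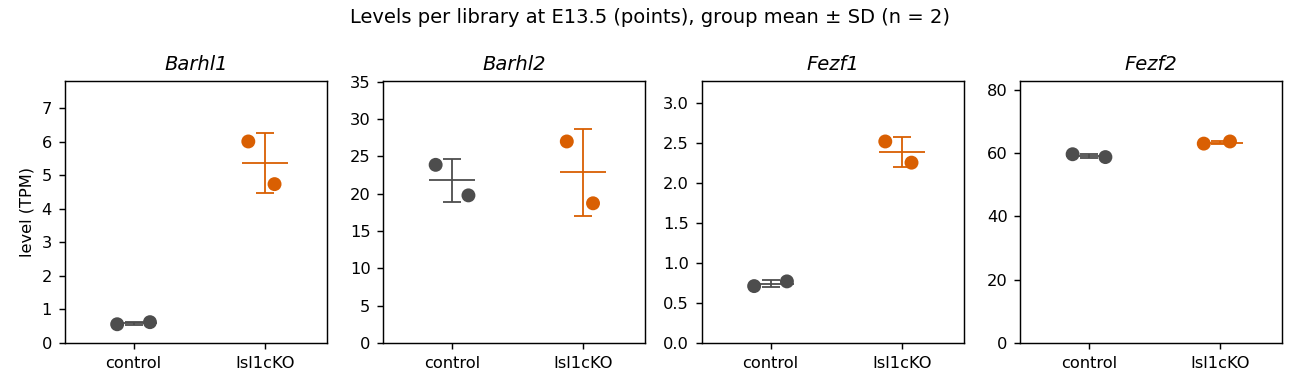
Level in TPM (y axis, from 0 and scaled for each gene) of Barhl1, Barhl2, Fezf1 and Fezf2 in each library (points), with the group mean and SD (bars, n = 2). Barhl1 and Fezf1 stood at 0.557 to 0.769 TPM in the controls and at 2.25 to 6.01 TPM in the libraries labelled Isl1cKO, while the Barhl2 groups overlapped.

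Set against its relative, Barhl1 made up 2.28% and 3.04% of the summed Barhl TPM in the controls, and 18.2% and 20.2% in the libraries labelled Isl1cKO. Its mean share was 2.66 ± 0.536% and 19.2 ± 1.41% (SD, n = 2 each). Barhl2 was thus 42.8 and 31.9 times as abundant as Barhl1 in the controls, and 4.49 and 3.95 times as abundant under the Isl1cKO label. Barhl2 stayed the major Barhl transcript in all 4 libraries. The sum of the pair was 22.4 ± 2.85 TPM in the controls and 28.2 ± 6.75 TPM in the libraries labelled Isl1cKO, and its values overlapped between the groups.

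Fezf1 supplied 1.18% and 1.29% of the summed Fezf TPM in the controls, and 3.85% and 3.42% in the libraries labelled Isl1cKO. Fezf2 outweighed it 83.9 and 76.3 times in the controls, and 25.0 and 28.2 times under the Isl1cKO label. In every library Fezf2 had the highest level and Barhl2 the next. Fezf1 stood above Barhl1 in both controls and below it in both libraries labelled Isl1cKO.

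**Figure D2:**
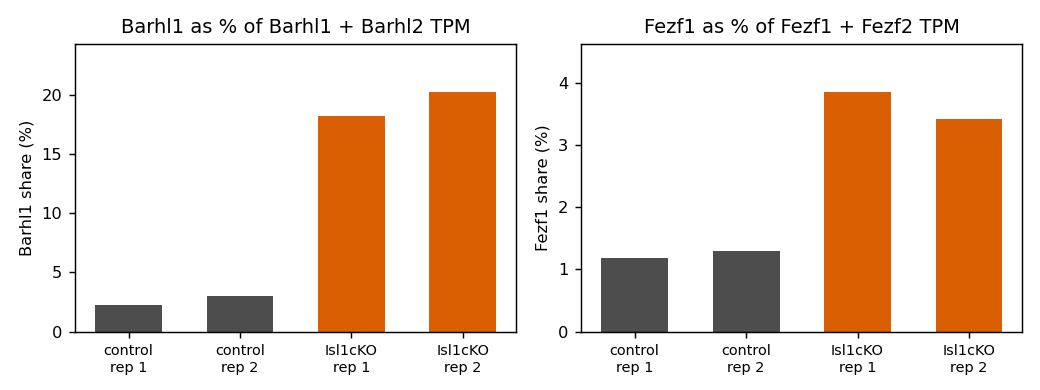
Share of the summed TPM of each pair (y axis, percent, from 0) that came from Barhl1 (left) and from Fezf1 (right) in each library (bars). Barhl1 supplied 2.28% to 3.04% in the controls and 18.2% to 20.2% under the Isl1cKO label, and Fezf1 1.18% to 1.29% and 3.42% to 3.85%.

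The stretches just upstream of the 4 starts listed by the authors are shown because Barhl1 and Fezf1 were higher under the same label. Their relatives stayed near their control levels. For Fezf2 the GENCODE M21 gene runs from 12342094 to 12348189, so the Fezf2 stretch lies inside that annotated gene and not upstream of it. They come from the RefSeq promoter table of GRCm38.p6, in which all 4 genes were matched, and run up to the gene start of the authors' tables or to the first base annotated as an exon in GENCODE M21. All are minus strand, 5′ to 3′: chr2:28916669-28916918 for Barhl1, chr5:106458167-106458416 for Barhl2, chr6:23248363-23248514 for Fezf1 and chr14:12345960-12346115 for Fezf2. Capitals mark TAAT on either strand, the core that many homeodomain proteins, LIM-homeodomain and BarH factors among them, can bind.
Barhl1: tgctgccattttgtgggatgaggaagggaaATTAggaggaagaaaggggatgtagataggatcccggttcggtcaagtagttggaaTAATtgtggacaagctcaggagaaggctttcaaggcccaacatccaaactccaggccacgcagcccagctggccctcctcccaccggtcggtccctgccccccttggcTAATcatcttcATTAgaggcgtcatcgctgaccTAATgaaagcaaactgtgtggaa
Barhl2: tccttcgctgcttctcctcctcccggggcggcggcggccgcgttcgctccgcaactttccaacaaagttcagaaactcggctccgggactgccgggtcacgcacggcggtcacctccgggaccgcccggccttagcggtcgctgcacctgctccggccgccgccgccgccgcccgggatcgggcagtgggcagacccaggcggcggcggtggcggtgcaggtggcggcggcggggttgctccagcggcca
Fezf1: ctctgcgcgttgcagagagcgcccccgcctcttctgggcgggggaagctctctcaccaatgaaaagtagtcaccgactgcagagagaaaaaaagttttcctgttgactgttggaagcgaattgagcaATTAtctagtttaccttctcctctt
Fezf2: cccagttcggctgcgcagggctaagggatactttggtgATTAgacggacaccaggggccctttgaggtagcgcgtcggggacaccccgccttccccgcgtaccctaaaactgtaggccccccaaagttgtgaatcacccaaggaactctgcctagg

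In the 250 bases upstream of the start listed by the authors, TAAT on either strand occurred 5 times at Barhl1, once at Fezf1, once at Fezf2 and not at Barhl2. These windows include 98 annotated exon bases at Fezf1 and 94 at Fezf2. It occurs at least once in 54.9% of 32851 RefSeq promoter windows of that length, with a median of 1. CTAATG, which contains TAAT, was found on both strands of the Barhl1 window, with first bases 46 and 24 bases before the start, and in 6.36% of all windows. TAATTG, which also contains TAAT, was found at Barhl1 and Fezf1, at Barhl1 with its first base 164 bases before the start, and in 7.17% of all windows. CAGCTG, an E-box that proneural factors can bind, was found at Barhl1 alone among the 4 windows, 99 bases before the start, and in 13% of all windows. TAATTA was in none of the 4 windows and in 4.84% of all. These are matches of letters, searched on both strands, and the expression tables hold no measurement of binding. Base composition set the windows apart as well: G and C made up 74.8% at Barhl2, 61.2% at Fezf2, 52.8% at Barhl1 and 47.6% at Fezf1, against a median of 52.4%.

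Whether genes beside the 4 loci differed with them was examined in all genes within 500 kb. Of 32 such genes 23 were tested, and 0 passed in limma, in which 0.493% of all tested genes passed. At an unadjusted p under 0.05 there were 2 of the 23, Cfap77 and Cadps, where 12.1% of all tested genes lay under that value. Ddx31, an RNA helicase gene that ends 2105 bases beyond the 3′ end of Barhl1 on the opposite strand, was at 12.5 and 13.9 TPM in control retina, against 14.2 and 13.4 TPM under the Isl1cKO label. Its groups overlapped. On the other side Cfap77, 38.8 kb away, was at 0.521 and 0.764 TPM in control retina, against 1.04 and 1.19 TPM under the Isl1cKO label, a log2 difference of 0.37 with an adjusted p of 0.327 in limma. The 15 tested neighbours of Barhl1 ran from -0.65 to 0.37 on the log2 scale. Barhl1 itself, at 2.00, was chosen with this contrast known, so nothing is read from the gap.

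The nearest neighbours of the Fezf genes are themselves relatives, Cadps2 beside Fezf1 and Cadps beside Fezf2, which encode activator proteins of dense-core vesicle release. Cadps2, 14.5 kb from Fezf1, was at 8.97 and 9.13 TPM in control retina, against 10.4 and 10.1 TPM under the Isl1cKO label, with a log2 difference of 0.17 and an adjusted p of 0.494 in limma. Cadps, 26.7 kb from Fezf2, was at 50.2 and 48.8 TPM in control retina, against 35.4 and 27.1 TPM under the Isl1cKO label, with a log2 difference of -0.66 and an adjusted p of 0.232 in limma. On the far side, Aass differed by 0.04 beside Fezf1, and 3830406C13Rik by -0.10 beside Fezf2. Gm3629, a predicted gene whose listed interval spans the Fezf2 locus, was at 0 in every library. Barhl2 lies in a gene-poor stretch, and Zfp644, its nearest tested neighbour at 158.6 kb, differed by -0.06. On the other side of Barhl2 the predicted gene Gm32921 was at 0 in every library.

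**Figure D3:**
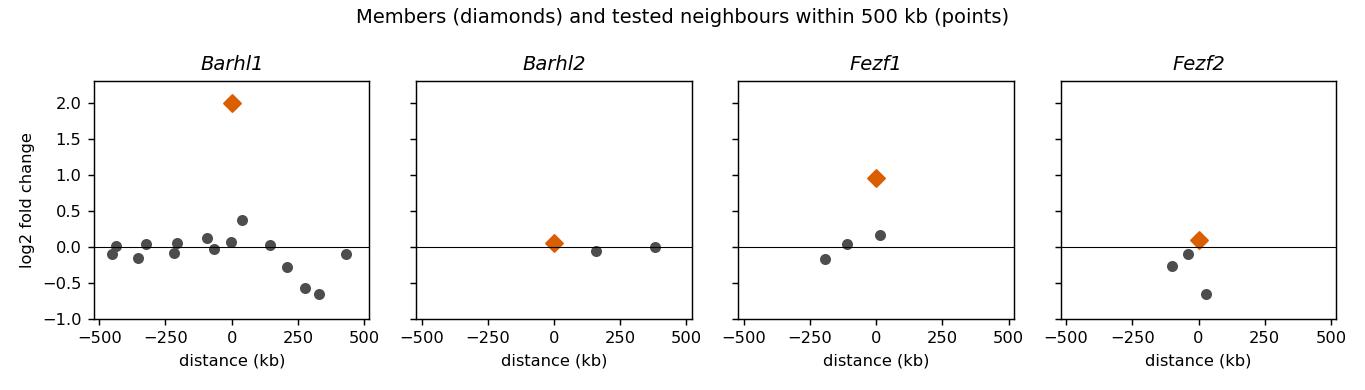
Log2 fold change, Isl1cKO label minus control (y axis), of each gene (diamond) and of its tested neighbours within 500 kb (points), against distance in kb along the chromosome (x axis). The neighbours of Barhl1 ran from -0.65 to 0.37, and Barhl1, chosen on this contrast, was at 2.00.

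Other genes of the pathways in which these factors act were taken from 5 lists and read in the limma fit over all 13984 genes. The lists were chosen with earlier results of these data known, so no support is drawn from their counts. Over all genes the median log2 fold change was -0.05, and 0.0286% passed as higher and 0.465% as lower. An unadjusted p under 0.05 was found in 12.1% of all tested genes. The TLE family, to which the corepressors recruited by BarH and Fezf proteins belong, had 0 of 6 tested members past the threshold. It had 1 at an unadjusted p under 0.05 and a median of -0.01. Not every member need bind these factors. That member, Tle1, was at 47.4 and 53.7 TPM in control retina, against 35.9 and 31.6 TPM under the Isl1cKO label, with an adjusted p of 0.201 in limma. Tle6 differed by 0.08 and Tle3 by 0.07, and the most abundant, Tle5, by -0.09.

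Genes that accompany Barhl1 and Barhl2 in spinal interneurons, cerebellar granule cells and hair cells had 0 of 8 tested members past the threshold and 3 at an unadjusted p under 0.05. The median was 0.14, with 5 members above 0 and 3 below. Robo3, a receptor that lets commissural axons reach the midline, was at 2.14 and 1.42 TPM in control retina, against 8.97 and 6.22 TPM under the Isl1cKO label. Its groups were well separated, with a log2 difference of 1.62 (SE 0.21) and an adjusted p of 0.101 in limma, which ranged from 0.00714 to 0.313 over the alternatives. The other members of that set were the POU-domain genes Pou4f1 and Pou4f3, which sensory and ganglion cell neurons express. Pou4f1 was at 19.6 and 19.7 TPM in control retina, against 9.66 and 4.16 TPM under the Isl1cKO label (adjusted p = 0.268 in limma). Pou4f3 read 4.86 and 2.02 TPM in control retina and 0.761 TPM in Isl1cKO replicate 1, and was listed at 0 in Isl1cKO replicate 2 (adjusted p = 0.285 in limma). Nhlh1, a bHLH gene of young neurons, differed by 0.26. Atoh1, the bHLH gene upstream of the Barhl genes in several of these lineages, stood at 0 to 0.0428 TPM across the 4 libraries. It was 1 of 5 members too low to be tested, along with Gfi1, Lhx1, Lhx5 and Lhx9.

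Genes regulated by, or acting with, the Fezf factors in the forebrain had 0 of 9 tested members past the threshold and 1 at an unadjusted p under 0.05, with a median of -0.02. That was Ephb1, an axon guidance receptor that Fezf2 activates in the cortex, at 9.34 and 7.28 TPM in control retina, against 5.69 and 5.84 TPM under the Isl1cKO label (adjusted p = 0.323 in limma). Hes5, a Notch target that Fezf factors repress in the forebrain, was at 255 and 237 TPM in control retina, against 279 and 294 TPM under the Isl1cKO label (adjusted p = 0.437 in limma). Bcl11b, the best-known gene downstream of Fezf2 in subcortical projection neurons, was at 1.97 and 2.10 TPM in control retina, against 1.56 and 2.02 TPM under the Isl1cKO label, with overlapping groups. Gad1, Neurog1, Slc17a7 and Tbr1 were too low to be tested.

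Regulators of amacrine and horizontal cells, among which Barhl2 acts in the retina, had 0 of 12 tested members past the threshold and 2 at an unadjusted p under 0.05, Onecut3 and Tfap2a. The median was -0.02. Onecut3, a factor of horizontal and ganglion cell precursors, was at 10.03 and 8.53 TPM in control retina, against 23.0 and 16.6 TPM under the Isl1cKO label, with a log2 difference of 1.003 and an adjusted p of 0.171 in limma. The amacrine factors Tfap2a and Tfap2b differed by -0.63 and -0.62 (adjusted p of 0.397 and 0.442 in limma), and Prdm13 by -0.53. Neurod6 was too low to be tested.

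Ganglion cell regulators had 3 of 23 tested members past the threshold, all lower, and 11 at an unadjusted p under 0.05, with a median of -0.12. Among all tested genes, 0.465% passed as lower and 12.1% were at an unadjusted p under 0.05. This list too was chosen with earlier results known, so its calls are described and not used as support. Of the 23, 11 lay above 0 and 12 below, and Dlx1 and Dlx2, which were among the 11 at an unadjusted p under 0.05, lay above 0 at 0.32 and 0.22 (adjusted p of 0.327 and 0.396 in limma). These Dlx genes were singled out after their values were seen. Irx2, Irx3 and Irx5, Iroquois homeobox genes, fell, with log2 differences of -1.26, -3.11 and -3.2, with adjusted p-values of 0.0249, 0.0119 and 0.0199 in limma. Irx3 was at 28.6 and 22.1 TPM in control retina, against 1.86 and 2.20 TPM under the Isl1cKO label, and Irx5 was at 23.7 and 16.9 TPM against 1.55 and 1.05 TPM. With 1 library left out, 0 or 1 member passed: Irx3 without control replicate 2, Pou4f1 without Isl1cKO replicate 1, and 0 without control replicate 1 or Isl1cKO replicate 2. Ebf3, an early B-cell factor gene of ganglion cells, stood at 135 and 105 TPM in control retina, against 47.0 and 29.7 TPM under the Isl1cKO label (adjusted p = 0.139 in limma). Isl2, the paralog of Isl1, was at 5.11 and 5.74 TPM in control retina, against 2.33 and 1.119 TPM under the Isl1cKO label (adjusted p = 0.173 in limma).

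**Figure D4:**
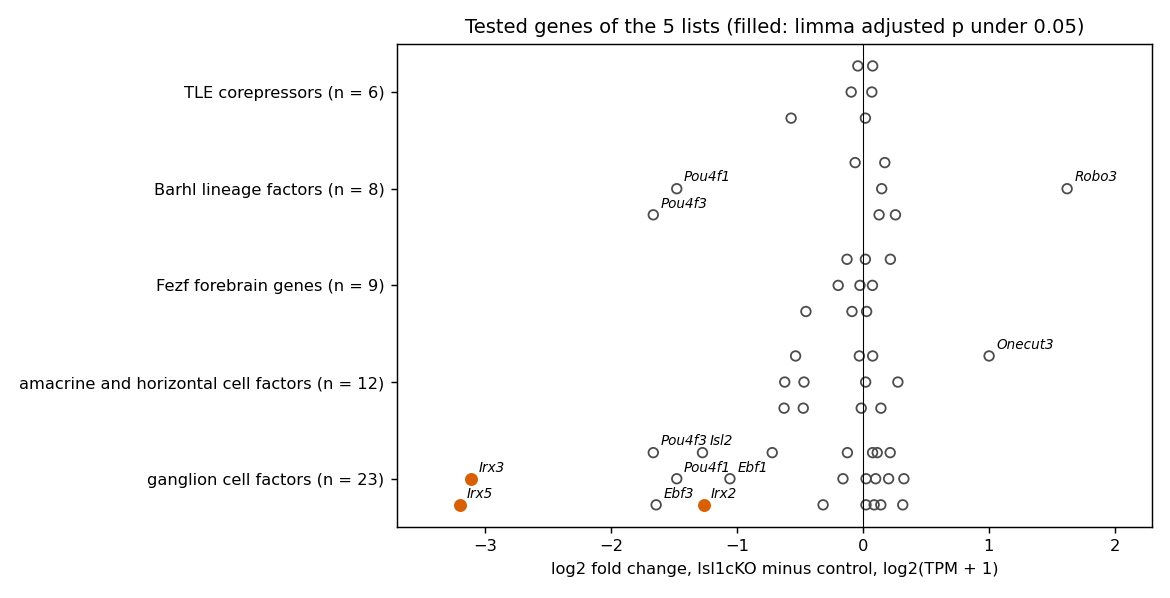
Log2 fold change, Isl1cKO label minus control, on the log2(TPM + 1) scale (x axis) of each tested gene of 5 lists (y axis, with the number tested), where filled points passed an adjusted p of 0.05 in limma and vertical spread only separates points. The filled points are Irx2, Irx3 and Irx5, and Robo3 lies furthest to the right at 1.62.

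The genes whose values over the 4 libraries most resembled those of each factor were found by Euclidean distance between log2(TPM + 1) values, each taken relative to the gene's own mean, among the tested genes. Barhl1 lay nearest to Asic4, Robo3, Apoc1, Anxa11 and Grp, at distances of 0.47 to 0.78. Asic4, an acid-sensing ion channel subunit, was at 2.34 and 2.00 TPM in control retina, against 9.25 and 7.45 TPM under the Isl1cKO label. Apoc1, an apolipoprotein gene that is also in the list of yolk sac and liver genes described with Fezf1, was listed at 0 in control replicate 1 and at 0.403 TPM in control replicate 2, against 2.35 and 1.94 TPM under the Isl1cKO label. Anxa11, an annexin, was at 2.58 and 2.38 TPM against 8.39 and 6.24 TPM, and Grp, which encodes gastrin-releasing peptide, at 0.577 and 0.927 TPM against 4.08 and 2.43 TPM. None of the 5 lay as high in both libraries labelled Isl1cKO, relative to its mean, as Barhl1 did.

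Fezf1 lay nearest to Apoa1, Opcml, C1qb, Msln and Onecut3, at distances of 0.23 to 0.30. Opcml, a cell adhesion gene of neurons, was at 1.56 and 1.253 TPM in control retina, against 4.81 and 3.58 TPM under the Isl1cKO label. Apoa1, an apolipoprotein gene of liver and yolk sac, was at 0.372 and 0.531 TPM against 1.68 and 2.06 TPM. C1qb, a complement gene of microglia, was at 11.7 and 10.3 TPM against 18.6 and 19.8 TPM. A list of 13 yolk sac and liver genes, written after this was seen, had 4 of 7 tested members above 0 and 3 below. Among all tested genes 36.2% lay above 0. In limma 0 of the 7 passed and 4 were at an unadjusted p under 0.05, beside 12.1% of all tested genes. Those 4 include Apoa1 and Apoc1, seen before the list was written. Afp, Apoa1 and Apoc1 met the filter through the libraries labelled Isl1cKO alone and had to be higher there. No support is therefore drawn from either count. The 4 also include Ttr, which was lower at -0.35. The summed level of the list was 10.2 to 11.1 TPM in the controls and 14.0 to 18.7 TPM under the Isl1cKO label, with Apoc3 at 0 in every library. Within it the mean of Afp, singled out after its values were seen, was 0.549 TPM in the controls and 4.34 TPM under the Isl1cKO label. Rbp4 went the other way, with means of 4.17 and 2.17 TPM, and the groups of Apoa2 and Apom overlapped. A list of 8 microglial genes, written at the same time, had 7 of 8 above 0, beside 36.2% of all tested genes. In limma 0 of the 8 passed and 3 were at an unadjusted p under 0.05, beside 12.1% of all tested genes. Those 3 include C1qb, seen before the list was written, so no support is drawn from the counts. The groups of Aif1, Csf1r, Ctss and Tyrobp overlapped. The microglial list summed to 59.7 to 64.9 TPM in the controls and 75.7 to 91.6 TPM under the Isl1cKO label. The part of these cells in the levels of Fezf1 and Barhl1 was not tested.

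Barhl2 and Fezf2 lay nearest to genes that also differed little between the groups, which follows from the distance used. They were Rora, Cdk3, Znrd1as, Cfap206 and Tmsb15b2 for Barhl2, at distances of 0.03 to 0.08, and Plin2, Tnni3, Zmynd8, Tfg and Dennd1a for Fezf2, at 0.01. Rora, a nuclear receptor gene, was at 10.4 and 8.82 TPM in control retina, against 11.9 and 8.11 TPM under the Isl1cKO label, with replicate 1 above replicate 2 in each group, as for Barhl2. With only 4 libraries these distances describe the libraries and share their depth and composition.

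**Figure D5:**
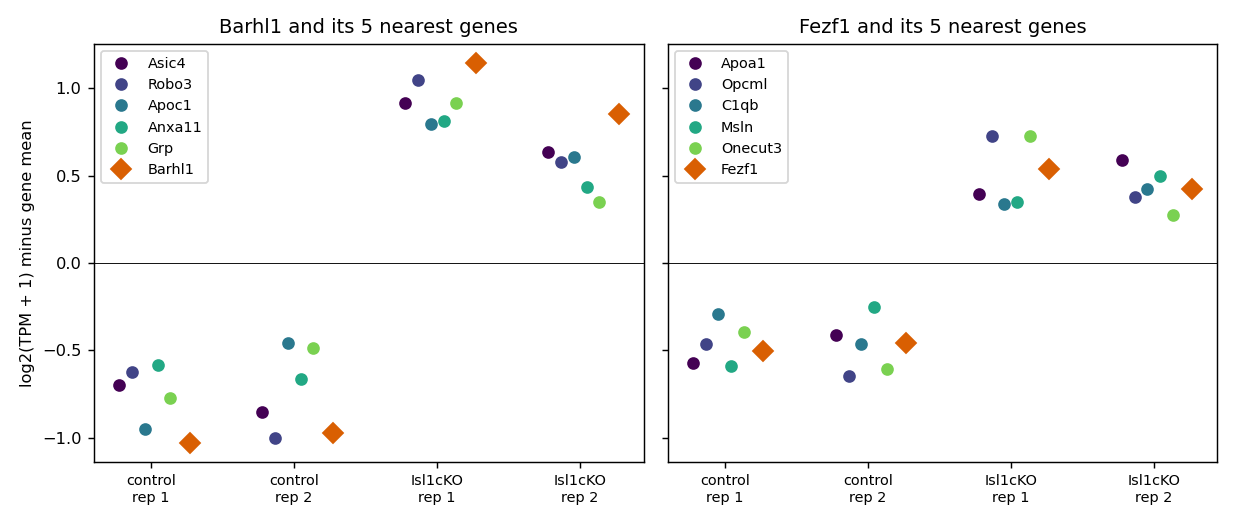
Log2(TPM + 1) minus the gene's mean over the 4 libraries (y axis) in each library (x axis) for Barhl1 (left) and Fezf1 (right, diamonds) and the 5 genes nearest to each (circles). All genes shown lie below 0 in both controls and above 0 in both libraries labelled Isl1cKO, which follows from choosing the nearest genes.

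Since these factors are best known from brain and olfactory tissue, markers of neighbouring tissue were read as well. The 6 forebrain and hypothalamus markers each stayed under 1 TPM in all 4 libraries and summed to 0.624 and 0.742 TPM in the controls and to 0.283 and 0.316 TPM under the Isl1cKO label, with Nkx2-1 at 0 throughout. The 6 midbrain and hindbrain markers summed to 0.538 and 0.591 TPM and to 0.269 and 0.362 TPM, with En1 and Foxa2 at 0 throughout. The part of brain tissue in the levels of Barhl1 and Fezf1 was not tested. The 5 olfactory markers summed to 15.0 and 10.8 TPM in the controls and to 17.7 and 7.16 TPM in the libraries labelled Isl1cKO. Gng8 and Trpc2 made up most of this, and Omp, the defining gene of olfactory sensory neurons, was at 0.116 TPM or less.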

How the data were processed

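RNA sequencing of E13.5 mouse retina was analysed in 2 control and 2 Isl1cKO libraries, grouped and numbered by their titles. Libraries were strand-specific and poly(A)-selected per the labels' protocols. Per the submitters' processing notes, HISAT2, SAMtools and StringTie were among the tools and mm10 was the genome build, with no versions, roles or annotation given. Per the file headers, each library's table gives coverage, FPKM and TPM per gene. The deposited coverage, a signal not scaled to depth, served for depth and is also printed for Barhl1 and Fezf1. The deposited TPM was the main measure, and the deposited FPKM was tried in its place. The median ratio of coverage to FPKM gave the gigabases, and depth in reads is unknown. For Barhl1, with 5 GENCODE M21 transcripts, this ratio was 11.5 to 13.1 and not the library's usual value.

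TPM of gene IDs on several rows were summed. Genes with 1 TPM or more in at least 2 libraries were fitted as log2(TPM + 1) with limma 3.58.1 in R 4.3.3 by genotype, with Benjamini-Hochberg adjustment over 13984 genes and a threshold of 0.05. The fit was tested on simulated data, in which it called 80% of planted log2 changes of 2 in either direction and 91% of those of 3. It also called 6 unchanged genes. Changes were planted only in genes with means above the filter, so genes near 1 TPM and smaller changes were not covered. The limma p-values measure the spread between libraries, which may be technical.

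The genes, lists, marker lists and naming rule were chosen with earlier results of these data known. Named were the 4 genes, Isl1, list members past the threshold with up to 4 others per list of large change, adjacent genes and the 5 most similar genes. Some items are not reported here. The yolk sac, liver and microglia lists were added later. The pigment epithelium markers summed to 25.1 to 40.6 TPM and those of periocular mesenchyme to 1.58 to 3.38 TPM across libraries. Alternatives were a pseudocount of 0.1, FPKM, median-ratio scaling, no filter, a mean-variance trend, the replicate number as a block and leaving out each library. Figures were drawn with matplotlib 3.10.9.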

Additional observations from a re-analysis of the deposited data

How the results depend on the processing

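Barhl1 and Fezf1 kept their direction under all 8 alternatives run for them, which is no support, since both were chosen on this contrast. Their groups did not overlap, so leaving out a library or changing the pseudocount could not reverse the sign. The log2 difference of Barhl1, 2.00, rose to 2.98 when the pseudocount was 0.1 and dropped to 1.32 on FPKM values, and that of Fezf1, 0.96, went to 1.56 and 0.59. Both moves follow from the construction, since a pseudocount weighs most on low values and FPKM values are smaller numbers than TPM here. The excess of the Barhl1 change over that of Barhl2, 1.95, was 2.93 and 1.23 in the same order, and that of Fezf1 over Fezf2, 0.86, was 1.47 and 0.45. The Fezf2 difference, 0.10, was 0.142 with FPKM and 0.144 under median-ratio scaling, which moved the median of all genes from -0.0481 to -0.0025. With each library left out in turn, Barhl1 ranged from 1.85 to 2.14, Fezf1 from 0.90 to 1.02, Fezf2 from 0.09 to 0.11 and Barhl2 from -0.21 to 0.30, the only sign change among them. The 2 pair differences ranged from 1.79 to 2.11 and from 0.80 to 0.93.

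The 69 genes called over all genes became 44 when the pseudocount was 0.1, 109 on FPKM values, 110 with a mean-variance trend, 81 under median-ratio scaling and 15 without the filter, where more genes were tested. Fits with 1 library left out, where the lone library is taken to vary like the other group, called 10 to 37 (10 and 14 when control replicate 1 or 2 was dropped, 37 and 18 when Isl1cKO replicate 1 or 2 was). In the ganglion cell list, 3 calls became 0 without the filter, and 0 to 1 with a library left out. The list of Barhl lineage genes went from 0 to 1 call with FPKM, which was Robo3, and to 0 to 1 with a library left out, the 1 being Pou4f1 when Isl1cKO replicate 1 was dropped. The TLE and Fezf forebrain lists had 0 calls under all 9 alternatives run for them. The mean-variance trend was not among the alternatives counted for the lists. Under it Robo3, Ebf1 and Ebf3 were called, as well as Irx2, Irx3 and Irx5. Except where stated, the cause was not tested.

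The replicate numbers pair nothing in the labels, and the deviations of the libraries numbered 1 correlated at 0.126 across genes. With the replicate block 265 genes were called. The block gave 6 calls in the ganglion cell list, 2 in the Barhl lineage list (Robo3 and Pou4f3) and 1 in the amacrine and horizontal cell list (Onecut3), and it leaves the differences of the 4 factors as they are because the design is balanced.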

Other observations

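Few genes moved from under 1 TPM in the controls to 2 TPM or more under the Isl1cKO label. Of 11043 gene IDs under 1 TPM in both controls, 5 reached 2 TPM or more in both libraries labelled Isl1cKO, and Barhl1 and Fezf1 were 2 of these. The other 3 were Afp, Grp and the predicted gene Gm2260. Afp, the alpha-fetoprotein gene of yolk sac and liver, was at 0.315 and 0.783 TPM in control retina, against 2.81 and 5.88 TPM under the Isl1cKO label. In the opposite direction, 35 of 11242 gene IDs under 1 TPM in both libraries labelled Isl1cKO were at 2 TPM or more in both controls. These limits of 1 and 2 TPM were chosen after the values had been seen, and no test was run on them. Since Barhl1 and Fezf1 were chosen on this contrast, nothing is read from their place among the 5.

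Among those 35, transcription factor genes stood beside crystallins of the lens. Irx4, an Iroquois homeobox gene, was at 6.46 and 4.39 TPM in control retina, against 0.0540 and 0.0543 TPM under the Isl1cKO label. Pou4f3 was also among them. These genes were chosen after their values were seen.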
